A study of Mus musculus with 36 samples.

Results

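Wild-type natural killer (NK) cells that carried none of the sorted inhibitory receptors (triple-negative, TN) were compared with cells that carried all of them (triple-positive, TP). The comparison uses 6 of the 36 libraries of the series, 3 TN against 3 TP, and 12018 of the 32940 genes of the table of sorted subsets, namely those whose TPM averaged 1 or more across its 18 columns. TPM, a transcript abundance unit, divides a gene's reads by its length and scales each library to a fixed total. The totals of the 18 deposited columns still differed, from 934292 to 948786 TPM. Both groups came from spleens of wild-type C57BL/6 mice (WT, B2m+/+) and from the mature CD27- CD11b+ stage, with no treatment named. TP cells were Ly49C+ Ly49I+ NKG2A+ and TN cells were Ly49C- Ly49I- NKG2A-. Set beside them are WT single-positive cells (SP, Ly49I+ only) and the same TP and TN sorts from B2m-/- mice (KO), which lack beta-2 microglobulin, the light chain of MHC class I, 3 libraries each. Every library is 1 sample, and the labels number the libraries of a group as biological replicates without saying whether equal numbers mark cells of 1 mouse.

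NK cells kill target cells and release cytokines when activating receptors outweigh inhibitory ones. In mice the main inhibitory receptors for MHC class I are members of the Ly49 family and the heterodimer of CD94 and NKG2A. In B6 mice Ly49C and Ly49I bind the self molecule H-2Kb, and NKG2A binds Qa-1. Cells that carry such receptors respond more strongly to activation than cells without them, a process called education or licensing, and the comparison of TP with TN cells asks which transcripts go with that difference.

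The receptors used in the sort are a check of the labels and not a finding. Klra3, which encodes Ly49C, was at 245, 214 and 193 TPM in the TP libraries and at 0.23, 2.48 and 1.61 TPM in the TN libraries. Klrc1, which encodes NKG2A, was at 868, 871 and 853 against 13.1, 29.2 and 25.2 TPM, and Klra9, which encodes Ly49I, at 1060.1, 859.7 and 969 against 82.5, 87.7 and 77.1 TPM. All 3 were high in every TP library and low in every TN library, as the labels say, and Klra9 was also high in SP cells (928 ± 109 TPM). Of the genes behind the maturation gate, Itgam (CD11b) was at 719, 663 and 608 TPM in TP cells and 573, 533 and 519.8 TPM in TN cells and missed the threshold (log2 change -0.29, SE 0.08, adjusted p 0.0738). Cd27, the gene of the surface protein that both groups were sorted to lack, was at 84.5, 89.8 and 118 TPM in TP cells and 170, 194 and 205 TPM in TN cells, so every TN library was higher (log2 change 0.97, SE 0.13, adjusted p 0.000527).

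Marker lists of the cell types a splenic sort could hold were read in the same 6 libraries. All 11 NK-defining genes were above 0, and their summed level was 26347 to 27340 TPM in TP cells and 23595 to 24567 TPM in TN cells. Cd3e, Cd6 and Cd8b1 of the 10 T cell markers were at 0 in all 6 libraries, as were 9 of 27 myeloid markers, among them S100a8, S100a9, Mpo and Elane. The 10 T cell markers still summed to 223 to 261 TPM in TP cells and 221 to 284 TPM in TN cells. Erythroid and platelet markers summed to 143 to 164 TPM in TP cells and 112 to 142 TPM in TN cells. The summed myeloid level was 39.8 to 64.8 TPM in TP cells and 23.0 to 29.2 TPM in TN cells. B cell markers summed to 182 to 202 TPM in TP cells and 298 to 344 TPM in TN cells, and most of that sum was Ighm. Markers of group 1 innate lymphoid cells (ILC1), close relatives of NK cells, summed to 41.3 to 47.2 TPM in TP cells and 14.5 to 20.0 TPM in TN cells with none of 11 at 0 throughout, and the ranges did not overlap. The part of these other cells in the results was not tested. The sequencing depth is unknown, and 12302 to 14320 genes were above 0 per library. In a principal component analysis of the 9 WT libraries WT TP replicate 2 stood apart on the first component (17.2% of the variance) and WT TN replicate 1 on the second (16.2%). Counts are therefore also given without these 2 libraries, a choice made after seeing the data.

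Between TN and TP cells 157 of 12018 genes (1.31%) passed an adjusted p of 0.05 in limma, and these are the genes called below. Of them 82 were higher in TN cells (0.682% of those tested) and 75 were lower (0.624%). Leaving out the 3 sort markers, the genes that fell were mostly abundant in TP cells and included the receptor genes Klrg1, Cd226, Cx3cr1 and Thy1, the regulator Id2 and the effectors Ccl5, Gzma, Gzmb and Prf1. The genes that rose included 6 other Ly49 genes, Klrc2, Tigit, Eomes, Tcf7, S1pr1 and Ptpn6. Called genes that rose had a median level of 40.2 TPM in TP cells and of 90.6 TPM in TN cells. Those that fell, without the sort markers, went from a median of 164 to 61.6 TPM. The median log2 change of the former was 0.96 and of the latter -0.88. Likewise without the sort markers, 36 rose and 31 fell at least 2-fold. Fold changes are on the log2(TPM + 1) scale, which understates those of low genes.

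The TN and TP values did not overlap for each of the 157 called genes, and for 1751 of all 12018 genes (14.6%). Before adjustment 1504 genes had a p under 0.05. The count rests on the spread shared by all 18 libraries: with only the 6 libraries compared 21 genes were called, and with the 9 WT libraries 48. The lowest correlation of a library within its group was 0.904 to 0.928 in WT and 0.932 to 0.957 in KO cells. The parts of this difference and of the fewer degrees of freedom in the lower counts were not tested. Without WT TN replicate 1 the count was 101, without WT TP replicate 2 it was 104, and without both it was 71. In bulk RNA, fewer cells with a transcript and less of it per cell cannot be told apart.

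**Figure D1:**
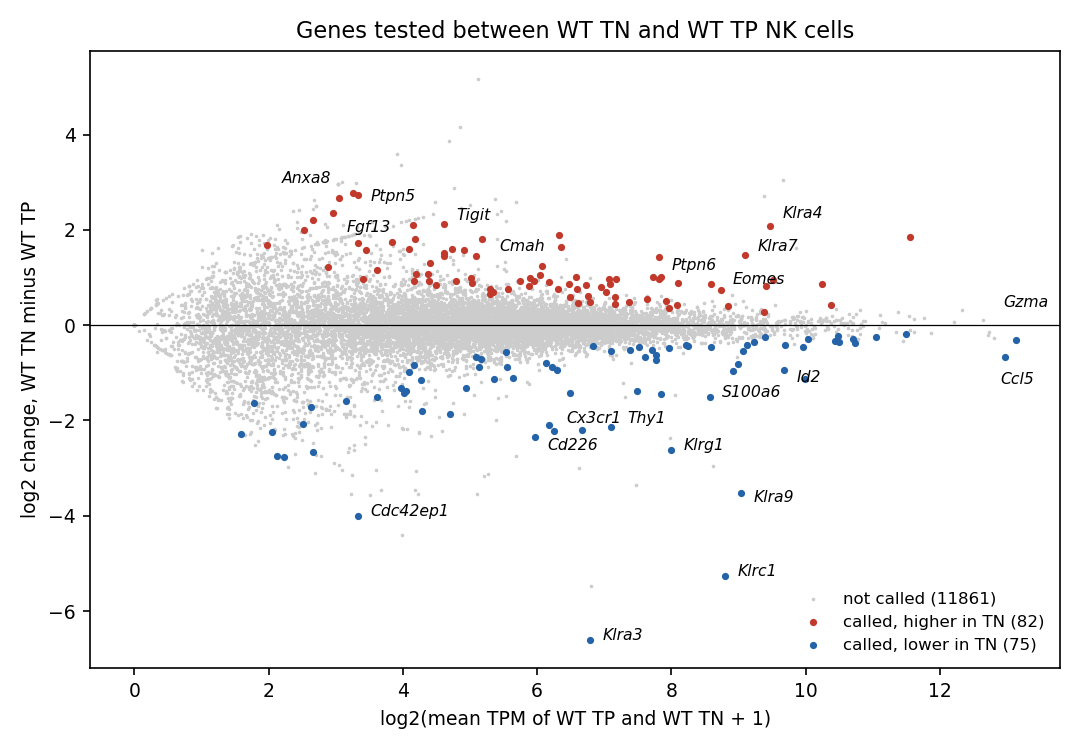
Each point is 1 of the 12018 genes tested, with log2(mean TPM of WT TP and WT TN + 1) on the x axis and the log2 change from WT TP to WT TN on the y axis. Red points are the 82 genes called higher in TN cells, blue points the 75 called lower and grey points the rest. Klra3, Klrc1 and Klra9, the sort markers, lie at the bottom, and Ccl5 and Gzma are the most abundant genes called lower.

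The Ly49 receptors that were not part of the sort were higher in TN cells. Of 9 listed genes 7 passed the filter, and 6 of these rose and none fell, against 1.31% called over all genes. The median log2 change was 1.47 over the 7 tested against -0.01 over all genes. The largest change was that of Klra4, which encodes the activating receptor Ly49D, at 277, 258 and 277 TPM in TP cells and 1093, 1007 and 1359 TPM in TN cells. Every TN library lay well above every TP library (log2 change 2.08, SE 0.13, adjusted p 2.27e-08), and SP cells lay between them at 823 ± 113 TPM. Klra7, the gene of the inhibitory receptor Ly49G2, was at 307, 271 and 291 TPM in TP cells and 766, 729 and 928 TPM in TN cells (log2 change 1.47, SE 0.09, adjusted p 2.27e-08). Klra1, which encodes the inhibitory receptor Ly49A, was at 31.1, 38.1 and 29.1 against 104, 114 and 160.4 TPM (log2 change 1.90, SE 0.18, adjusted p 5.69e-06). For both genes the groups were far apart, and SP means of 527 and 83.5 TPM fell between those of TP and TN cells. Klra8, the gene of Ly49H, which recognises a cytomegalovirus protein, was at 1006, 756 and 827 TPM in TP cells and 1626, 1436 and 1637 TPM in TN cells (log2 change 0.87, SE 0.14, adjusted p 0.00262). Klra10 (log2 change 1.43, SE 0.15, adjusted p 1.74e-05) and the low gene Klra6 (log2 change 1.58, SE 0.28, adjusted p 0.00578) rose too, while Klra5 at 9.81, 23.8 and 17.0 against 24.9, 16.4 and 36.9 TPM had a log2 change of 0.61 and an adjusted p of 0.5. Klra2 and Klra17 were below the filter.

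Ly49 genes resemble each other, and reads from one can be assigned to another. In the GENCODE M21 transcripts (GRCm38), 4.68% of the 50-base stretches of the longest coding transcript of Klra4 also occur in a transcript of another gene, 2.62% of those of Klra6, 3.15% of those of Klra1 and 14.7% of those of Klra7. The share was larger for Klra8 (33.1%), mostly with a pseudogene, and for Klra10 (39.8%), most often with the sort marker Klra9. Levels of Klra8 and Klra10 are the less certain for that. Without WT TP replicate 2 and WT TN replicate 1 together, 5 of the 7 were called and Klra8 was not, and with only the 6 compared libraries 2 of the 7 were.

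The sequences just upstream of the start sites of Klra6 and Klra7 are shown because they belong to Ly49 genes that rose and hold CTTTGAT, the core motif of TCF/LEF factors, whose part in these changes was not tested. Those of Cx3cr1 and Tigit are shown because they are the promoters of a chemokine receptor that fell and an inhibitory receptor that rose, and both hold the core TGTGGT bound by RUNX factors, which are active in NK cells. They are the 250 bases before the start site from the RefSeq table (GRCm38.p6), in the direction of transcription, with the motif in capitals. ACCACA is TGTGGT on the other strand. The regions are chr6:130026955-130027204 (minus strand) for Klra6, chr6:130233323-130233572 (minus) for Klra7, chr9:120068297-120068546 (minus) for Cx3cr1 and chr16:43664185-43664434 (minus) for Tigit, and for Klra7 the entry that holds the motif was taken.
Klra6: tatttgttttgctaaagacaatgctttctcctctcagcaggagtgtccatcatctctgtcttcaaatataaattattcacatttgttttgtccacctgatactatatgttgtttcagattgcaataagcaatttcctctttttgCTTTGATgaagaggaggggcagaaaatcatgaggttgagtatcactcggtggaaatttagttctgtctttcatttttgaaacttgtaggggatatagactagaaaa
Klra7: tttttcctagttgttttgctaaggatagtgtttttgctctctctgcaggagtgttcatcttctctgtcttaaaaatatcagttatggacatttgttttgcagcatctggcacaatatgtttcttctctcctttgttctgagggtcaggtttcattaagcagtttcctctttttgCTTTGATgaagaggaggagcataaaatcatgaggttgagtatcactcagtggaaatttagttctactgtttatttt
Cx3cr1: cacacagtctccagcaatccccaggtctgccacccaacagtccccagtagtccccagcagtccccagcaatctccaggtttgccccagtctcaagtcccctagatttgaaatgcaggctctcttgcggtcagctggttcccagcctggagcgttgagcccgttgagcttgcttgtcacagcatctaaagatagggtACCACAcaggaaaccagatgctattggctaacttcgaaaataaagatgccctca
Tigit: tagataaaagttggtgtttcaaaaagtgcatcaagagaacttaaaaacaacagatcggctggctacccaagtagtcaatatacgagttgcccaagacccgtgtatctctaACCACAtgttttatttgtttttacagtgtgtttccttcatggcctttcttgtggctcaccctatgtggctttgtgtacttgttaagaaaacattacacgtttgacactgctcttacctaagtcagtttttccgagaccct
On either strand CTTTGAT occurred in 5 of 61 genes called higher that have an entry (8.2%), in 2 of 57 called lower (3.51%) and in 1005 of all 27025 genes (3.72%). Klra6 and Klra7 are among the 5, and the letters around the motif are nearly the same in both, so their hits are not independent. TGTGGT occurred in 9 of the 61 (14.8%), in 10 of the 57 (17.5%) and in 4303 of all 27025 (15.9%). These 2 motifs do not overlap each other, were chosen after the values were seen, and describe letters only.

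Most Ly49 genes, the NKG2 genes and the NKR-P1 genes lie side by side in the NK gene complex on chromosome 6. In the RefSeq gene order (GRCm38.p6), 38 tested genes lie from Klrb1a to Klra2, of which 3 are sort markers. Of the other 35, 11 were called (against 1.31% over all genes), of which TN cells had 10 higher and 1 lower. The genes that rose were Klrb1, Klrc2, Klri2, Klra6, Klra4, Klra8, Klra7, Klra10, Klra1 and the transcribed pseudogene Klra13-ps, which was the most abundant of them at 1399, 1203 and 1324 TPM in TP cells and 4832, 4258 and 5056 TPM in TN cells. Its groups were far apart (log2 change 1.85, SE 0.08, adjusted p 1.57e-10). It was named after its values were seen, and it shares sequence with Klra7. The gene that fell was Klrb1b.

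Among 13 C-type lectin receptor genes outside the Ly49 family, 3 rose and 2 fell, against 1.31% called over all genes. The strongest fall was that of Klrg1, which encodes an inhibitory receptor for cadherins that marks terminally mature NK cells. It was at 454, 459.5 and 397 TPM in TP cells and 78.8, 61.6 and 69.3 TPM in TN cells, with SP cells between at 246 ± 45.0 TPM. The lowest TP library was several times the highest TN library (log2 change -2.63, SE 0.14, adjusted p 3.41e-09). Klrb1b, the gene of an inhibitory NKR-P1 receptor that binds Clr-b on healthy cells, was at 308, 314 and 385 against 135, 109 and 126 TPM (log2 change -1.44, SE 0.11, adjusted p 5.14e-07). Its groups did not overlap, and 29% of its 50-base stretches occur in another gene. Klrc2, which encodes the activating partner NKG2C of CD94, was at 548, 480.2 and 467 TPM in TP cells and 979, 867 and 1061 TPM in TN cells (log2 change 0.96, SE 0.09, adjusted p 4.56e-06), and 30.1% of its stretches occur elsewhere, mostly in the sort marker Klrc1. Klri2, a receptor that pairs with KLRE1, was at 274, 285 and 259 against 500.4, 462 and 520.2 TPM (log2 change 0.86, SE 0.07, adjusted p 7.98e-07). Klrb1 rose from 38.9 to 94.1 TPM (log2 change 1.25, SE 0.18, adjusted p 0.000816). CD94 itself (Klrd1) was at 1299 ± 42.7 and 1215 ± 95.9 TPM, NK1.1 (Klrb1c) at 1544 ± 21.0 and 1586 ± 109 TPM, and the activating receptor NKG2D (Klrk1) at 1596 ± 90.1 and 1988 ± 224 TPM with an adjusted p of 0.0591. All 5 genes called here were also called without WT TP replicate 2 and WT TN replicate 1.

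Receptors for nectins and nectin-like proteins moved in both directions. DNAM-1, the product of Cd226, activates NK cells, while TIGIT inhibits them and competes for the same ligands. Cd226 was at 133, 108 and 69.8 TPM in TP cells and 15.5, 21.8 and 19.6 TPM in TN cells, so that the lowest TP library, replicate 3, was still over every TN library (log2 change -2.35, SE 0.24, adjusted p 1.71e-05). Tigit was at 11.1, 5.83 and 7.12 TPM in TP cells and 24.6, 50.9 and 40.8 TPM in TN cells, without overlap (log2 change 2.12, SE 0.34, adjusted p 0.00269). SP cells lay between for both, at 53.9 ± 10.8 TPM for Cd226 and 22.6 ± 7.66 TPM for Tigit. Cd96 had a log2 change of -0.29 and Crtam of 0.66, with adjusted p of 0.312 and 0.336. Neither Cd226 nor Tigit was called with only the 6 compared libraries. None of the 6 other checkpoint receptor genes tested was called (against 1.31% over all genes). Lair1 came closest at 36.8, 35.0 and 38.4 against 15.0, 25.7 and 26.5 TPM (log2 change -0.73, adjusted p 0.117).

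**Figure D2:**
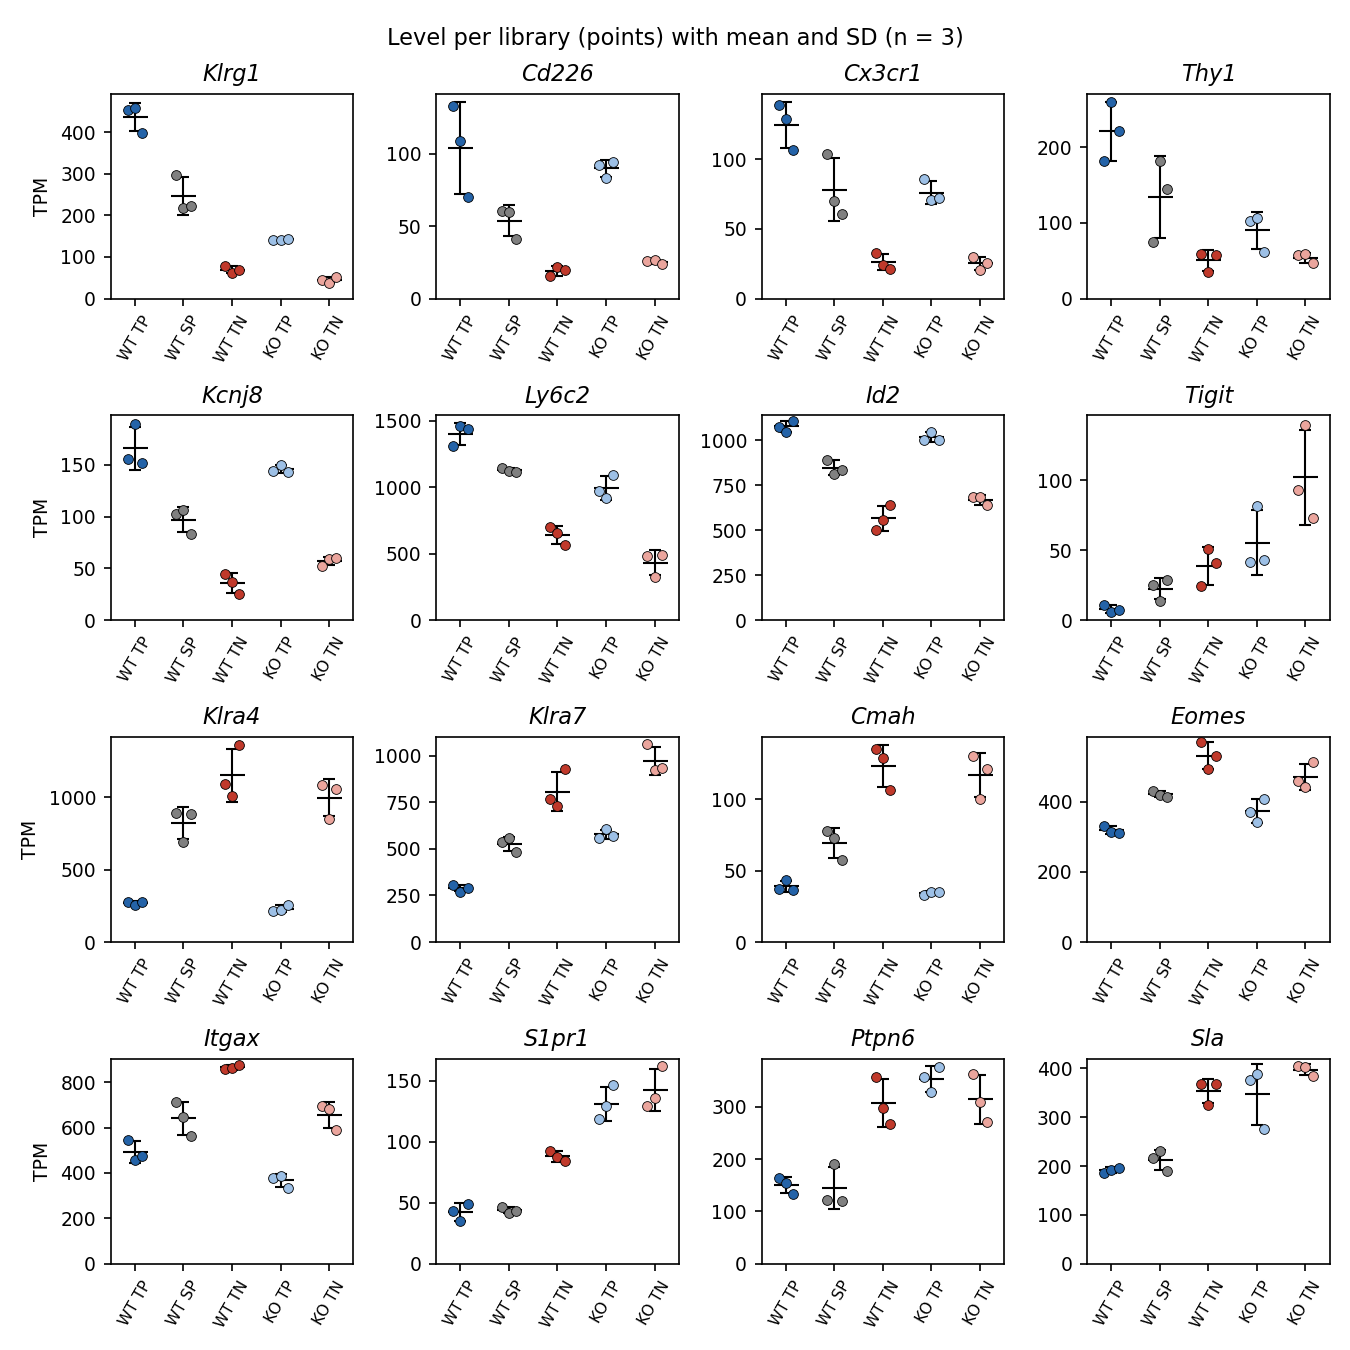
Each panel shows the TPM of 1 gene on a linear axis that starts at 0, with 1 point per library in WT TP, WT SP, WT TN, KO TP and KO TN cells and the mean with its SD (n = 3). Klrg1, Cd226, Cx3cr1, Thy1, Kcnj8, Ly6c2 and Id2 are lower in every WT TN library than in every WT TP library, and the other 9 genes are higher. Ptpn6, Sla and S1pr1 have KO TP means near or above their WT TN means.

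Of 16 activating receptors and adaptors tested, 6 had an unadjusted p under 0.05, against 1504 of 12018 over all genes. In 8 of the 16 the groups did not overlap (14.6% over all genes). Over the 16, log2 changes ran from -1.30 to 2.06. Ncr1, the gene of NKp46, was the 1 called (against 1.31% over all genes). It was at 2416, 2242 and 2259 TPM in TP cells and 1929.5, 1924 and 1963 TPM in TN cells (log2 change -0.25, SE 0.06, adjusted p 0.0333). The SLAM receptor gene Slamf6 was at 1.2, 1.45 and 7.84 against 10.5, 17.2 and 15.4 TPM, higher in every TN library, but missed the threshold (adjusted p 0.0714). Among 27 kinases, scaffolds and exchange factors below these receptors, 2 were called (against 1.31% over all genes), both higher in TN cells. Fyn, a kinase of the SRC family, was at 599.8, 569.8 and 635 TPM in TP cells and 722, 699.7 and 753 TPM in TN cells (log2 change 0.27, SE 0.06, adjusted p 0.0347). Pik3r1, the regulatory subunit p85alpha of PI3-kinase, was at 243, 239 and 209 against 303, 321 and 306 TPM (log2 change 0.43, SE 0.10, adjusted p 0.0367). These are changes of well under 2-fold, and none of the 3 was called without WT TP replicate 2 and WT TN replicate 1.

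Of 30 genes that limit receptor signals 3 were called (against 1.31% over all genes), all of them higher in TN cells. The median log2 change over the 30 was 0.01. Ptpn6 encodes SHP-1, the phosphatase that inhibitory Ly49 receptors and NKG2A recruit. It was at 164, 155 and 133 TPM in TP cells and 357, 298 and 266 TPM in TN cells, without overlap (log2 change 1.02, SE 0.16, adjusted p 0.00209), while SP cells at 145 ± 40.7 TPM were at the TP level. Sla, the gene of an adaptor that promotes the loss of antigen receptors, was at 186, 193 and 197 TPM in TP cells and 368, 325 and 368 TPM in TN cells (log2 change 0.88, SE 0.11, adjusted p 0.000152), and SP cells at 213 ± 20.4 TPM were again nearer to TP cells. Spry2, an inhibitor of RAS and MAP kinase signals, was at 119, 107 and 112 against 169, 166 and 178 TPM (log2 change 0.60, SE 0.13, adjusted p 0.0322). Without WT TP replicate 2 and WT TN replicate 1 only Sla was called, and it was the 1 gene of the list called with the 6 compared libraries alone. The phosphatase gene Ptpn5, named for the size of its rise, is outside this list.

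Of 19 cytotoxic granule genes tested, 4 fell and none rose, against 1.31% called over all genes. In all 7 were above 0 and 12 below, with a median log2 change of -0.18, and the highest was Gzmk at 1.11, 0 and 3.55 against 3.97, 2.24 and 6.67 TPM (log2 change 1.23, adjusted p 0.321). Gzma, the granzyme with the highest level, was at 10202, 9884 and 9816 TPM in TP cells and 7841, 7856 and 8263 TPM in TN cells (log2 change -0.32, SE 0.06, adjusted p 0.011). Gzmb was at 1001, 948 and 903 TPM in TP cells and 739, 651 and 739.5 TPM in TN cells (log2 change -0.42, SE 0.08, adjusted p 0.0131). Prf1, the gene of the pore protein perforin, was at 1599, 1572 and 1460.4 against 1328, 1238 and 1119 TPM (log2 change -0.33, SE 0.07, adjusted p 0.0343), and the lysosomal protease gene Ctsd at 1573, 1546 and 1528 against 1361, 1288 and 1329 TPM (log2 change -0.22, SE 0.05, adjusted p 0.0347). The groups did not overlap for any of the 4, but the changes were small, and none was called without WT TP replicate 2 and WT TN replicate 1 or with the 6 compared libraries alone. Under quantile normalization the change of Gzma was 0.00.

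Of 14 cytokine and chemokine genes 1 fell and 1 rose, against 1.31% called over all genes. Ccl5, which encodes the chemokine RANTES, was at 9787, 9535 and 10134 TPM in TP cells and 6666, 6319 and 5676 TPM in TN cells, with SP cells between at 8106 ± 545 TPM. All TN libraries were lower (log2 change -0.66, SE 0.08, adjusted p 6.06e-05). Ccl3, the gene of MIP-1alpha, was at 169.8, 168 and 146 TPM in TP cells and 258, 234 and 213 TPM in TN cells (log2 change 0.54, SE 0.12, adjusted p 0.0281). Its SP level, 233 ± 12.0 TPM, was that of TN cells. Ifng, at 51.5, 43.8 and 60.7 against 52.1, 63.0 and 71.4 TPM, overlapped between the groups. Ccl5 was not called under quantile normalization, and Ccl3 was not called without WT TP replicate 2 and WT TN replicate 1.

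Among 34 transcription factors of NK development 2 rose and 1 fell, against 1.31% called over all genes. Id2 encodes an inhibitor of E proteins that NK cells need to mature. It was at 1075, 1049 and 1109 TPM in TP cells and 501, 560 and 639.5 TPM in TN cells, and SP cells at 848 ± 40.6 TPM lay between. The TP libraries were close together and all above the TN libraries (log2 change -0.93, SE 0.07, adjusted p 7.75e-07). Eomes, one of the T-box factors that specify NK cells, was at 330.5, 314 and 312 TPM in TP cells and 570.4, 493 and 528 TPM in TN cells (log2 change 0.73, SE 0.08, adjusted p 4.82e-05), again with SP cells between at 421 ± 9.03 TPM. Tbx21, the gene of the other T-box factor T-bet, was lower in all TN libraries, at 566, 558 and 494 against 461, 437 and 375 TPM, and missed the threshold (log2 change -0.35, adjusted p 0.0738). Tcf7, the gene of TCF-1, which is high in immature NK cells, was at 111, 114 and 135 TPM in TP cells and 149.8, 172 and 171 TPM in TN cells (log2 change 0.45, SE 0.10, adjusted p 0.0376). Zeb2, which drives the last steps of maturation, had a log2 change of -0.58 (adjusted p 0.116). Tcf7 was not called without WT TP replicate 1 or 2 or WT TN replicate 2 or 3.

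Of 22 surface markers that separate early from late NK cells 9 were called (against 1.31% over all genes). These were 4 higher and 5 lower in TN than in TP cells. Thy1, a GPI-anchored protein of lymphocytes, was at 182, 260 and 221 TPM in TP cells and 58.6, 35.0 and 57.6 TPM in TN cells (log2 change -2.13, SE 0.30, adjusted p 0.000626). Ly6c2, the gene of Ly6C, which appears late in NK maturation, was at 1306, 1459 and 1435 TPM in TP cells and 698, 657 and 567 TPM in TN cells (log2 change -1.13, SE 0.15, adjusted p 0.000299). For both the groups did not overlap, and 33% of the 50-base stretches of Ly6c2 occur in another gene, nearly all in Ly6c1, which was at 10.3 TPM or less. Itgb2 (log2 change -0.38, SE 0.06, adjusted p 0.00404) and Cd9 (log2 change -0.44, SE 0.09, adjusted p 0.0221) fell less, and Itga1, the gene of CD49a, fell from 4.13 ± 0.786 to 0.733 ± 0.643 TPM (log2 change -1.63, SE 0.36, adjusted p 0.0326). Among those that rose were Cd55 (log2 change 0.82, SE 0.15, adjusted p 0.00983), Ctla2a (log2 change 0.96, SE 0.11, adjusted p 6.06e-05) and Ctla2b (log2 change 1.00, SE 0.23, adjusted p 0.0373), the last with 96.7% of its stretches shared. The Cd27 transcript level stood higher in TN cells alongside these, as given with the sort. Without WT TP replicate 2 and WT TN replicate 1, 5 of the 22 were called, and Itga1, Cd9, Cd55 and Ctla2b were not.

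Receptors that place NK cells in tissues held 6 called genes among the 19 tested, against 1.31% called over all genes. From TP to TN cells 2 of the 6 rose and 4 fell. Cx3cr1, the receptor for fractalkine and a marker of late NK cells, was at 139, 129 and 106 TPM in TP cells and 32.5, 24.2 and 21.4 TPM in TN cells. All TP libraries were over 3-fold above all TN libraries (log2 change -2.23, SE 0.20, adjusted p 3.94e-06), with SP cells at 78.1 ± 22.8 TPM. Itgb7, a subunit of the gut-homing integrins, was at 631, 695 and 614 against 448, 294 and 379 TPM (log2 change -0.81, SE 0.15, adjusted p 0.00844). Receptors for sphingosine 1-phosphate, which guides cells out of tissues, moved apart. S1pr1 was at 42.9, 35.2 and 49.2 TPM in TP cells and 92.6, 87.1 and 84.1 TPM in TN cells (log2 change 1.05, SE 0.13, adjusted p 0.000152), with SP cells at the TP level (43.8 ± 2.47 TPM). S1pr5, the member that mature NK cells use, was at 496, 414 and 428 TPM in TP cells and 336, 337 and 305 TPM in TN cells (log2 change -0.45, SE 0.09, adjusted p 0.0147), and S1pr4 fell as well (log2 change -0.54, SE 0.11, adjusted p 0.0184). Itgax, the gene of CD11c, was at 547, 457 and 475 TPM in TP cells and 857, 863 and 876 TPM in TN cells (log2 change 0.81, SE 0.09, adjusted p 5.32e-05). With the 6 compared libraries alone just Cx3cr1 and Itgax were called. S1pr4 was not called without WT TP replicate 1 or 3 or WT TN replicate 1 or 2, nor S1pr5 without WT TP replicate 1 or WT TN replicate 3.

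**Figure D3:**
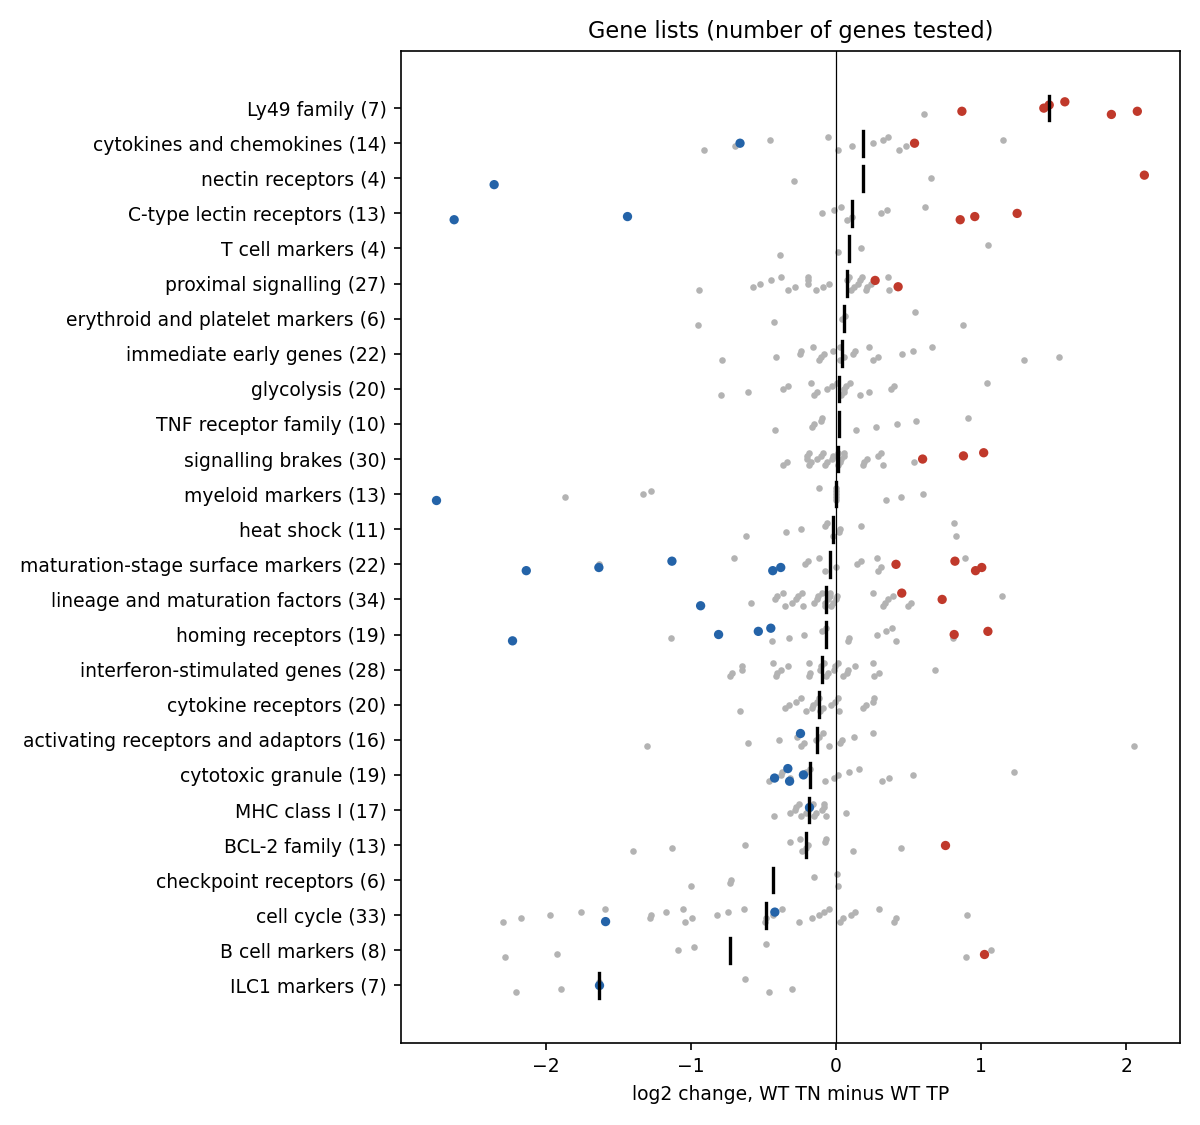
Each row is a gene list with the number of its genes tested, and each point is the log2 change of 1 gene from WT TP to WT TN cells. Red points were called higher in TN cells, blue points lower, grey points were not called, and the black bar is the list's median. Among the lists drawn, which leave out the sort markers, the Ly49 list has the highest median, 1.47, and the ILC1 list the lowest, -1.63.

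Cell cycle genes stood lower in TN cells as a list, with 25 of 33 below 0 and a median log2 change of -0.48, against 6153 of 12018 and -0.01 over all genes. Of the 33, 2 passed the test (against 1.31% over all genes). Mki67, the proliferation marker Ki-67, was at 12.6, 12.4 and 11.4 TPM in TP cells and 1.94, 4.62 and 4.06 TPM in TN cells (log2 change -1.59, SE 0.33, adjusted p 0.0228), and Ccnd3, the gene of cyclin D3, at 693, 655 and 574 against 481, 482 and 468 TPM (log2 change -0.42, SE 0.09, adjusted p 0.0223). Most mitotic genes were under 20 TPM in these resting cells, such as Top2a at 18.9, 10.7 and 13.8 against 9.05, 3.12 and 8.34 TPM and Kif11 at 3.55, 5.39 and 2.94 against 0.07, 0.46 and 0.9 TPM, with adjusted p of 0.264 and 0.0649. Mcm6, a subunit of the replication helicase, went the other way, at 76.9, 73.4 and 85.0 against 113, 99.9 and 99.2 TPM (adjusted p 0.0686). The summed level of the 36 listed genes was 1573 to 1724 TPM in TP cells and 1366 to 1429 TPM in TN cells, without overlap. The means of these sums were 1666.5 and 1401.6 TPM, and Ccnd3 alone had means of 641 and 477 TPM. The sum therefore largely repeats the fall of Ccnd3 and says little about the low mitotic genes. Neither Mki67 nor Ccnd3 was called without WT TP replicate 2 and WT TN replicate 1.

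Of 13 BCL-2 family genes 1 was called (against 1.31% over all genes), namely Bcl2, which protects lymphocytes from death. It was at 61.8, 60.8 and 52.7 TPM in TP cells and 100.3, 98.8 and 97.4 TPM in TN cells (log2 change 0.75, SE 0.12, adjusted p 0.00284). The median log2 change of the 13 was -0.21, and 10 of them were below 0. Over all genes the median was -0.01, and 6153 of 12018 were below 0. Of 17 MHC class I genes 16 had a log2 change below 0, with a median of -0.19. An unadjusted p under 0.05 was reached by 6 of the 17, against 1504 of 12018 over all genes. Only H2-D1 was called (against 1.31% over all genes), at 3104, 3050.4 and 3060.1 against 2680, 2738 and 2680.4 TPM (log2 change -0.19, SE 0.04, adjusted p 0.0476). It was, however, called in just 1 of 18 alternative settings and was lost when any 1 of the 6 WT TP and TN libraries was left out. The heavy chain H2-K1, which carries the ligand of Ly49C and Ly49I, was at 7011, 7314 and 7065 against 6729, 6089 and 6616 TPM (log2 change -0.14, adjusted p 0.246).

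Limma called 0 genes among the 20 cytokine receptors, 10 TNF receptors, 22 immediate early genes, 11 heat shock genes, 28 interferon-stimulated genes and 20 glycolytic genes tested. The share called over all genes was 1.31%. At an unadjusted p under 0.05 there were 3, 1, 2, 0, 2 and 4 of these, against 1504 of 12018 over all genes. Their median log2 changes lay between -0.12 and 0.04. With 3 libraries a group, small changes of these genes would be missed.

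Markers of other cell types held 3 called genes (against 1.31% over all genes). Ighm, the gene of the IgM heavy chain, was at 148, 125 and 143 TPM in TP cells and 285, 291 and 268 TPM in TN cells (log2 change 1.02, SE 0.10, adjusted p 1.71e-05). Of the 8 B cell markers tested 3 were above 0 and 5 below 0, and Ighm alone was called. Ighd was at 3.71, 5.98 and 2.66 against 5.37, 13.5 and 7.33 TPM (log2 change 0.89, adjusted p 0.425) and Igha at 0.15, 0 and 0.14 against 11.0, 0 and 0 TPM (1.06, 0.604). Igkc was at 25.4, 33.5 and 25.7 against 38.0, 0 and 10.4 TPM, Iglc2 at 5.35, 2.76 and 12.6 against 0, 0 and 1.83 TPM, and Cd79b at 1.22, 0.65 and 3.29 against 1.71, 0 and 1.14 TPM. H2-Aa, a chain of MHC class II that antigen-presenting cells express, was at 10.1, 5.5 and 4.28 TPM in TP cells and 0, 0 and 0.24 TPM in TN cells (log2 change -2.75, SE 0.55, adjusted p 0.015). Cd74, the invariant chain of class II, was at 15.2, 6.87 and 6.81 against 2.72, 1.87 and 5.56 TPM (adjusted p 0.328). Lyz2 was at 5.87, 14.1 and 11.3 against 5.62, 0 and 2.95 TPM (adjusted p 0.341). Of the 13 myeloid markers tested 3 were above 0 and 5 below 0, with a median log2 change of 0.0, and H2-Aa alone was called. Cd68 went the other way, at 10.2, 5.08 and 5.1 against 12.3, 10.8 and 8.22 TPM (log2 change 0.60, adjusted p 0.62). The third called gene was Itga1, and all 7 ILC1 markers tested were below 0. Il7r at 3.84, 4.45 and 5.67 against 0.51, 1.84 and 0.38 TPM and Tmem176b at 6.06, 6.41 and 4.97 against 0, 0 and 2.19 TPM were lower in every TN library, with adjusted p of 0.158 and 0.116. H2-Aa and Itga1 were not called without WT TP replicate 2 and WT TN replicate 1.

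The largest falls outside the sort markers included genes with no listed role. Cdc42ep1, an effector of the GTPase CDC42, was at 18.4, 22.8 and 12.4 TPM in TP cells and 0.21, 0.24 and 0 TPM in TN cells (log2 change -4.01, SE 0.43, adjusted p 3.23e-05), so the transcript was close to 0 in all TN libraries. Its SP level was 2.40 ± 2.11 TPM. Kcnj8, a subunit of ATP-sensitive potassium channels, was at 156, 189.5 and 152 TPM in TP cells and 45.0, 36.6 and 25.8 TPM in TN cells (log2 change -2.21, SE 0.16, adjusted p 1.95e-07), with SP cells between at 97.1 ± 12.2 TPM. S100a4, a calcium-binding protein, was at 107, 113 and 124 against 14.7, 44.9 and 26.7 TPM (log2 change -2.09, SE 0.26, adjusted p 0.000199), although 56.3% of its stretches occur in another gene model. Gprc5a, an orphan receptor gene, was at 6.71, 5.63 and 5.05 TPM in TP cells and 0.96, 0.1 and 0.37 TPM in TN cells (log2 change -2.24, SE 0.39, adjusted p 0.00538), and SP cells at 6.91 ± 1.92 TPM were at the TP level. Mcrip2 (log2 change -2.76, SE 0.58, adjusted p 0.0228) and Cdk18 (log2 change -2.66, SE 0.51, adjusted p 0.0107) had TP means of 7.27 and 9.76 TPM. Neither of these low genes was called without WT TP replicate 2 and WT TN replicate 1.

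Of the called genes with the largest rises, several were at a few TPM in TP cells. Anxa8, an annexin gene, was at 3.72, 0 and 1.73 TPM in TP cells and 17.2, 17.2 and 11.4 TPM in TN cells (log2 change 2.77, SE 0.42, adjusted p 0.00126). Ptpn5, the gene of the tyrosine phosphatase STEP, was at 2.08, 0.79 and 2.16 against 19.4, 16.6 and 13.3 TPM (log2 change 2.74, SE 0.46, adjusted p 0.00414), and Fgf13 at 5.26, 3.04 and 10.2 against 33.2, 25.6 and 23.2 TPM (log2 change 2.10, SE 0.36, adjusted p 0.00419). Every TN library of these genes was at least 2-fold above every TP library. Cyp17a1, a steroid-synthesis enzyme, was at 18.3, 12.5 and 15.0 TPM in TP cells and 49.2, 56.7 and 60.3 TPM in TN cells (log2 change 1.81, SE 0.23, adjusted p 0.000255), and the muscle gene Cmya5 at 4.83, 3.07 and 3.14 against 15.1, 16.1 and 11.9 TPM (log2 change 1.72, SE 0.28, adjusted p 0.00245). Cc2d2b (log2 change 2.67, SE 0.58, adjusted p 0.0291), Ppp1r3f (log2 change 2.35, SE 0.55, adjusted p 0.0448), Shank1 (log2 change 1.99, SE 0.43, adjusted p 0.0296) and Rassf7 (log2 change 1.74, SE 0.41, adjusted p 0.0483) had adjusted p nearer to the threshold. These 4, Ptpn5 and Fgf13 were not called without WT TP replicate 2 and WT TN replicate 1, whereas Anxa8, Cyp17a1 and Cmya5 were. Of the abundant genes in no list, Cfl1, the actin-severing protein cofilin, was at 1790.4, 1930.4 and 1817 TPM in TP cells and 1576, 1432 and 1494 TPM in TN cells (log2 change -0.30, SE 0.06, adjusted p 0.0115) and was likewise not called without them.

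The same sort in B2m-deficient mice, where the receptors meet little of their ligand, compares other libraries than the WT comparison. Both comparisons came from the same fit over 18 libraries, which gave each gene the same spread in both. Their calls are therefore not independent. Between KO TN and KO TP cells 63 of 12018 genes were called (0.524%), or 40 without KO TP replicate 2 and 33 with the 6 KO libraries alone. Of the 63, 9 were myeloid and 3 B cell markers, all lower in KO TN cells. Myeloid markers summed to 141 to 329 TPM in KO TP and 12.0 to 17.0 TPM in KO TN cells, and B cell markers to 422 to 698 and 226 to 242 TPM. The part of such cells in the KO calls was not tested, and 0 of these 12 markers were called in WT cells. Of the 63 genes 36 were called in both genotypes, 22.9% of the 157 and 57.1% of the 63, all in the same direction. Without the 3 sort markers these were 17 that rose and 16 that fell. Klra4 rose in both, with log2 changes of 2.08 in WT and 2.11 in KO cells, as did Klrc2 (0.96 and 1.02), Klri2 (0.86 and 0.86) and Itgax (0.81 and 0.84). Ly6c2 (-1.13 and -1.21) and Klrb1b (-1.44 and -1.66) fell in both. The differences between genotypes were -0.03 for Klra4, -0.06 for Klrc2, -0.00 for Klri2, -0.02 for Itgax, 0.08 for Ly6c2 and 0.22 for Klrb1b, with SEs from 0.10 to 0.21. For Klrg1 the log2 changes were -2.63 in WT and -1.65 in KO cells, and KO TP cells were at 142 ± 2.01 TPM. The Ly49 gene Klra7, also called in both, had log2 changes of 1.47 in WT and 0.75 in KO cells. Its difference between the genotypes was 0.72 (SE 0.13, adjusted p 0.0808 in limma).

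For other genes the values in KO cells lay closer together. Ptpn6 was at 356, 328 and 376 TPM in KO TP against 363, 309 and 271 TPM in KO TN cells, so the groups overlapped and both were at the level of WT TN cells. Its difference between the genotypes was 1.20 on the log2 scale (SE 0.23, adjusted p 0.0808). Sla at 347 ± 61.8 and 397 ± 11.1 TPM and S1pr1 at 131 ± 13.9 and 142 ± 17.1 TPM were likewise high in both KO groups, with adjusted p of 0.25 and 0.098 for the difference between genotypes. Ccl5 was at 7234 ± 515 TPM in KO cells sorted as TP, against 6809.5 ± 465 TPM in those sorted as TN, and the adjusted p of its difference was 0.0808. Over all genes the test of the difference between genotypes called 3 genes of 12018 (0.025%), and no gene called between WT TN and TP cells was among them, the lowest adjusted p being 0.0808. That count was 0 with a pseudocount of 0.1 and 10 with no filter on low values. Before adjustment 754 genes (6.27%) had a p under 0.05, as had 77 of the 154 WT-called genes without the sort markers (50.0%), but the WT libraries that chose these genes also enter that test, so nothing is read from the share.

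**Figure D4:**
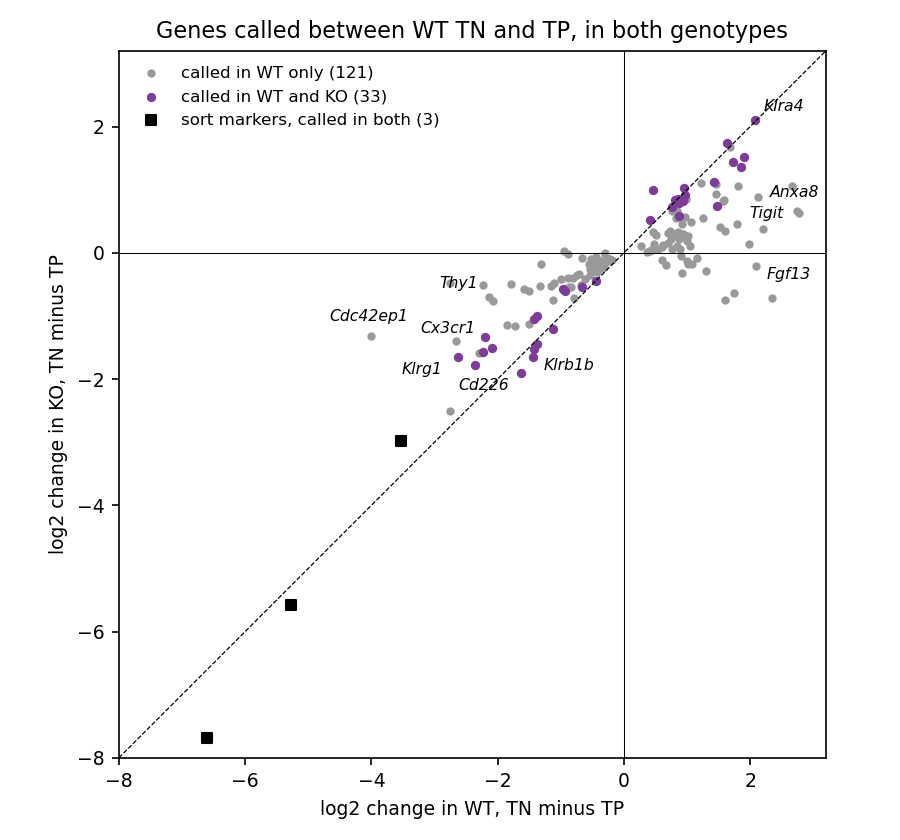
Each point is 1 of the 157 WT-called genes, with its log2 change in WT cells on the x axis and in KO cells on the y axis. The dashed line marks equal change. Purple points are the 33 genes called in both genotypes, black squares the 3 sort markers and grey points the 121 genes called in WT cells only. Klra4 and Klrb1b lie on or near the line, and Fgf13 lies below 0 on the y axis.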

How the data were processed

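RNA was sequenced from sorted mouse NK cells with a poly(A) library kit, per the labels' protocols. The authors deposited TPM values per gene, and the submitters' processing notes name STAR, RSEM and GRCm39, without versions. The annotation is not given in the sources used here. Each of the 18 columns of the subset table matched 1 sample by its name, and 0 columns were left unmatched. TPM keep no depth, so precision rests on 3 replicates a group. Tables of other experiments were not used here.

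Limma 3.58.1 in R 4.3.3 fitted log2(TPM + 1) with 1 mean for each of 6 groups over 18 libraries (12 residual degrees of freedom) and a variance trend, for genes whose TPM averaged 1 or more. Tests were two-sided, adjusted by Benjamini-Hochberg over 12018 genes, and called at an adjusted p under 0.05. An exact permutation test of 3 against 3 cannot go below 0.1. The script was tested on simulated data. WT and KO contrasts and their difference (the interaction) came from the same fit. Same-numbered WT TN and TP libraries deviated together with r from -0.0487 to 0.00835, so numbers were not used as pairs in the main fit. The other same-numbered pairs within a genotype, SP cells included, had r from -0.0349 to 0.0703. Pairs of unequal number had r from -0.0558 to 0.0477. These values do not settle whether equal numbers share a mouse or a batch, and counts with a replicate block are given below.

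Named genes were called genes without overlap between the groups: the 12 largest rises, the 12 largest falls, the 6 most abundant and every called gene of 29 lists, without sort markers and predicted genes. Some genes that this rule takes are counted but not reported here by name. Members and lists were chosen with earlier results of these data known, so lists are described by counts and medians and not tested. Promoters came from RefSeq (GRCm38.p6), and coordinates of the deposited build were not used.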

Additional observations from a re-analysis of the deposited data

Results flagged for a closer look

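The difference between TN and TP cells itself differed between WT and KO mice for 3 genes, by the test of the interaction over all 12018 genes. Igha, an immunoglobulin heavy chain gene, had an interaction of 8.05 on the log2 scale (SE 1.06, adjusted p 0.00925). It was at 166, 70.5 and 169 TPM in KO TP cells, at 0 in KO TN cells, at 0.15, 0 and 0.14 TPM in WT TP cells, and at 11.0, 0 and 0 TPM in WT TN cells. The neutrophil gene S100a9 had an interaction of 5.38 (SE 0.78, adjusted p 0.0114) and was at 13.2, 52.3 and 95.1 TPM in KO TP cells and at 0 in the 6 WT libraries and in KO TN cells. Ngp, another neutrophil gene, had an interaction of 4.49 (SE 0.62, adjusted p 0.00925) and was at 17.8, 19.4 and 39.96 TPM in KO TP cells and at 0 in the 6 WT libraries. None of the 3 was called between WT TN and TP cells. Myeloid markers summed to 140.8 to 328.9 TPM in KO TP cells and to 39.8 to 64.8 TPM in WT TP cells. B cell markers summed to 422 to 698 TPM in KO TP and to 182 to 202 TPM in WT TP cells, with Igkc at 283, 139 and 240.4 TPM in KO TP cells, and the part of such cells in the KO values was not tested.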

How the results depend on the processing

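The WT count of 157 genes fell to 21 with only the 2 compared groups and to 48 with only the 9 WT libraries. With 1 replicate left out it ran from 101 (without WT TN replicate 1) to 149, with 104 without WT TP replicate 2, and without both WT TP replicate 2 and WT TN replicate 1 it was 71. Under other pseudocounts, filters and scalings it lay from 140 to 162, and without a variance trend it was 123. With a replicate block it was 170, of which 132 were among the 157. The KO count of 63 was 33 with only the 2 compared groups, 82 with the replicate block and 40 (without KO TP replicate 2) to 50 with 1 replicate left out. The interaction count of 3 was 1 with only the compared groups, 0 with a pseudocount of 0.1 (754 at an unadjusted p under 0.05), 10 with no filter on low values, 1 with a filter at 5 TPM, 7 without a variance trend, 1 with the replicate block and 2 to 5 with 1 replicate left out, being 2 without KO TP replicate 2 and 5 without WT TN replicate 2, KO TP replicate 1 or 3, or KO TN replicate 2. The cause of these moves was not tested.

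Of the 67 genes that the rule for named genes takes, 66 kept their direction in all settings run, and Gzma was at 0.00 under quantile normalization. Calls held in all settings for 12: Cdc42ep1, Cx3cr1, Eomes, Ighm, Itgax, Klra4, Klra7, Klrb1b, Klrg1, Klri2, Ly6c2 and Sla. Leaving out 1 of the 6 WT TP and TN libraries ended 28 of the 67 calls at least once, and those of Ctsd, H2-D1, Ncr1, Pik3r1 and Spry2 whichever library was left out. With the replicate block Itga1, H2-D1, Pik3r1, Rassf7 and Cc2d2b were not called, and no other named call changed. With only the compared groups 54 were not called. Other scalings moved the median change of all genes by under 0.01. Depth is unknown, so genes at a few TPM carry the least certain values.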

Other observations

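Some called genes fall outside the lists and the rule for named genes, and the following were picked after their values were seen. Cmah, which encodes the enzyme that makes the sialic acid Neu5Gc, was at 37.3, 43.3 and 36.4 TPM in TP cells and 135, 129 and 107 TPM in TN cells (log2 change 1.63, SE 0.14, adjusted p 1.88e-06), and its log2 change in KO cells was 1.73. Hopx, a homeodomain gene of effector lymphocytes, was at 146, 117 and 126 against 39.6, 56.3 and 47.8 TPM (log2 change -1.43, SE 0.15, adjusted p 1.71e-05), and S100a6, a relative of S100a4, at 502, 628 and 557 against 229, 176 and 187 TPM (log2 change -1.51, SE 0.17, adjusted p 4.38e-05). For these 3 genes SP means of 69.4, 85.8 and 399 TPM lay between those of TP and TN cells. The abundant genes Vim (vimentin; log2 change -0.29), Lgals1 (galectin-1; -0.35), Msn (moesin; -0.26) and Anxa1 (annexin A1; -0.74) were all called lower in TN cells, at adjusted p from 0.01 to 0.048. Among genes called higher were Myc at 36.5, 41.2 and 26.2 against 53.9, 64.3 and 57.0 TPM (log2 change 0.76, SE 0.17, adjusted p 0.0389), Nfkb1 at 211, 194 and 191 against 282, 290.1 and 279 TPM (log2 change 0.52, SE 0.08, adjusted p 0.00167) and Nop58, a protein of the ribosomal RNA modification machinery, at 49.0, 58.2 and 42.4 against 99.0, 89.7 and 91.0 TPM (log2 change 0.90, SE 0.17, adjusted p 0.0107).

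Igf2r and Airn, a long RNA transcribed antisense to it, were both called higher in TN cells. Igf2r was at 64.4, 60.9 and 61.4 TPM in TP cells and 117, 109 and 117 TPM in TN cells (log2 change 0.87, SE 0.10, adjusted p 4.69e-05), and Airn at 24.6, 18.3 and 10.1 against 43.9, 38.7 and 62.4 TPM (log2 change 1.45, SE 0.29, adjusted p 0.014). The sources used here do not state whether reads were counted by strand, so reads from where these genes overlap may not be told apart.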
